A study of Mus musculus with 2 samples.

Results

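Transcripts of 38 genes of excision repair, mismatch repair and translesion synthesis were followed across the cell classes of the irradiated and the unirradiated mouse brain. The genes were taken by symbol from the 27998 genes of the count matrices. They comprise 19 genes of base excision repair and of the break sealing that goes with it, 11 of nucleotide excision repair, 3 of mismatch repair and 5 of translesion synthesis. All 38 symbols were found in both matrices. Single-nucleus RNA was sequenced from frozen whole brain of C57BL/6J mice carrying no engineered allele in the labels in 2 libraries. WBRT-28d came from brains given 5 fractions of 2 Gy to the whole brain, 10 Gy in all, and harvested 28 days later. ShamRT-28d came from brains labelled untreated, which the study's methods describe as mock-irradiated, harvested at the same time. Each library pooled the brains of 2 mice, female and bought young, and their age at harvest is not given in the sources used here. The nuclei cannot be traced to a mouse, so animals could not be compared.

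Base excision repair removes single damaged bases: a glycosylase cuts out the base, an AP endonuclease opens the strand, a polymerase fills the gap and a ligase seals it on the XRCC1 scaffold, while PARP enzymes sense the open strand. Nucleotide excision repair cuts out a short stretch around bulky lesions, found either by damage sensors anywhere in the genome or by a stalled RNA polymerase. Mismatch repair corrects copying errors, and translesion polymerases copy past lesions that stop the replicative polymerases. Most cells of the adult brain do not divide, so that the replication-coupled branches are chiefly known from dividing cells, whereas base excision repair handles oxidised bases in all cells.

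ShamRT-28d held 11469 barcodes with 45511469 UMIs (unique molecular identifiers, counted transcripts) and WBRT-28d held 15986 with 68423922, at medians of 2291 and 2565 UMIs per barcode, and 43 barcode sequences occurred in both. Marker genes assigned 8895 and 11786 nuclei to classes. Of these, 8 classes held at least 100 nuclei in each library: neurons, astrocytes, oligodendrocytes, oligodendrocyte precursor cells (OPCs), microglia, endothelial, mural and fibroblast nuclei. In every class all of its own markers were detected and stood above all gated nuclei in both libraries. The same markers had set the gate, so this is not an independent check of the classes. RNA of neurons was found in the other classes and more of it in WBRT-28d: 8 neuron markers reached 18.4% of their level over all gated nuclei in astrocytes of ShamRT-28d and 35.2% in WBRT-28d, and 41.0% and 62.3% in microglia. The values were 28.6% and 44.5% in oligodendrocytes, 30.1% and 38.3% in OPCs, 45.1% and 64.8% in endothelial, 27.8% and 57.9% in mural and 25.2% and 35.1% in fibroblast nuclei. The part of this RNA in the ratios of single members below was not tested, except where a value after its subtraction is given. The neurons were not made up alike, since 1565 of 4304 neuron nuclei of ShamRT-28d were excitatory, and 1317 of 5218 of WBRT-28d. With 1 library per condition no test between conditions was possible. Levels are CPM, the UMIs of the gene scaled to a total of 1000000 UMIs in the class, and all intervals are exact 95% intervals that cover counting error only, not the difference between animals.

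The 38 members together made up 1126 CPM of all gated nuclei in ShamRT-28d and 1153 CPM in WBRT-28d. Rev3l, the catalytic subunit of DNA polymerase zeta, had the most UMIs, at 217 CPM in ShamRT-28d and 241 CPM in WBRT-28d. Polb, the gap-filling polymerase of base excision repair, followed at 137 CPM in each library, and Rev1, the scaffold and deoxycytidyl transferase of translesion synthesis, at 109 and 107 CPM. The gene with the fewest UMIs was Ung, the uracil glycosylase, with 38 and 37 UMIs (in WBRT-28d Neil3 had fewer). Counts of unspliced RNA grow with gene length, and across the members log2 of the summed CPM of both libraries went with log2 gene length (Pearson's r = 0.68, Spearman's rho = 0.73 over 38 genes, given as a description). Per kilobase of gene, Polb stood highest, at 5.43 and 5.40 CPM per kb, against medians of 0.623 and 0.652 CPM per kb over the members. Neil3, a glycosylase known from dividing cells, stood lowest, at 0.0391 and 0.0132 CPM per kb. Rev3l, 143 kb long, stood at 1.52 and 1.68 CPM per kb, below Apex1, the main AP endonuclease, at 1.66 and 1.84 CPM per kb on only 136 and 186 UMIs.

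Most members were spread broadly over the classes. Among 33 members with at least 20 UMIs per library in 2 or more of the 8 classes, 25 were highest in the same class in both libraries (75.1% of the 12427 genes so measured), and 8 differed by at least 2-fold between their highest and lowest class in both (55.1%). A member was taken as standing apart in a class when its CPM was at least 2 times that of all gated nuclei in both libraries on at least 20 UMIs each. In the 8 classes this held for 4 genes: Rev3l in OPCs, Polk in endothelial nuclei, Parp3 in astrocytes and Xpc in fibroblasts. It was 1 of 22 members measured in OPCs (5.93% of all genes measured there), 1 of 7 in endothelial nuclei (15.7%), 1 of 28 in astrocytes (10.7%) and 1 of 14 in fibroblasts (15.9%). In oligodendrocytes, microglia and mural nuclei no member did so (all genes 6.93%, 15.1% and 18.1%). Neurons could hold no such gene (0.00% of all genes), since they made up 62.7% and 53.5% of all gated UMIs.

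**Figure D1:**
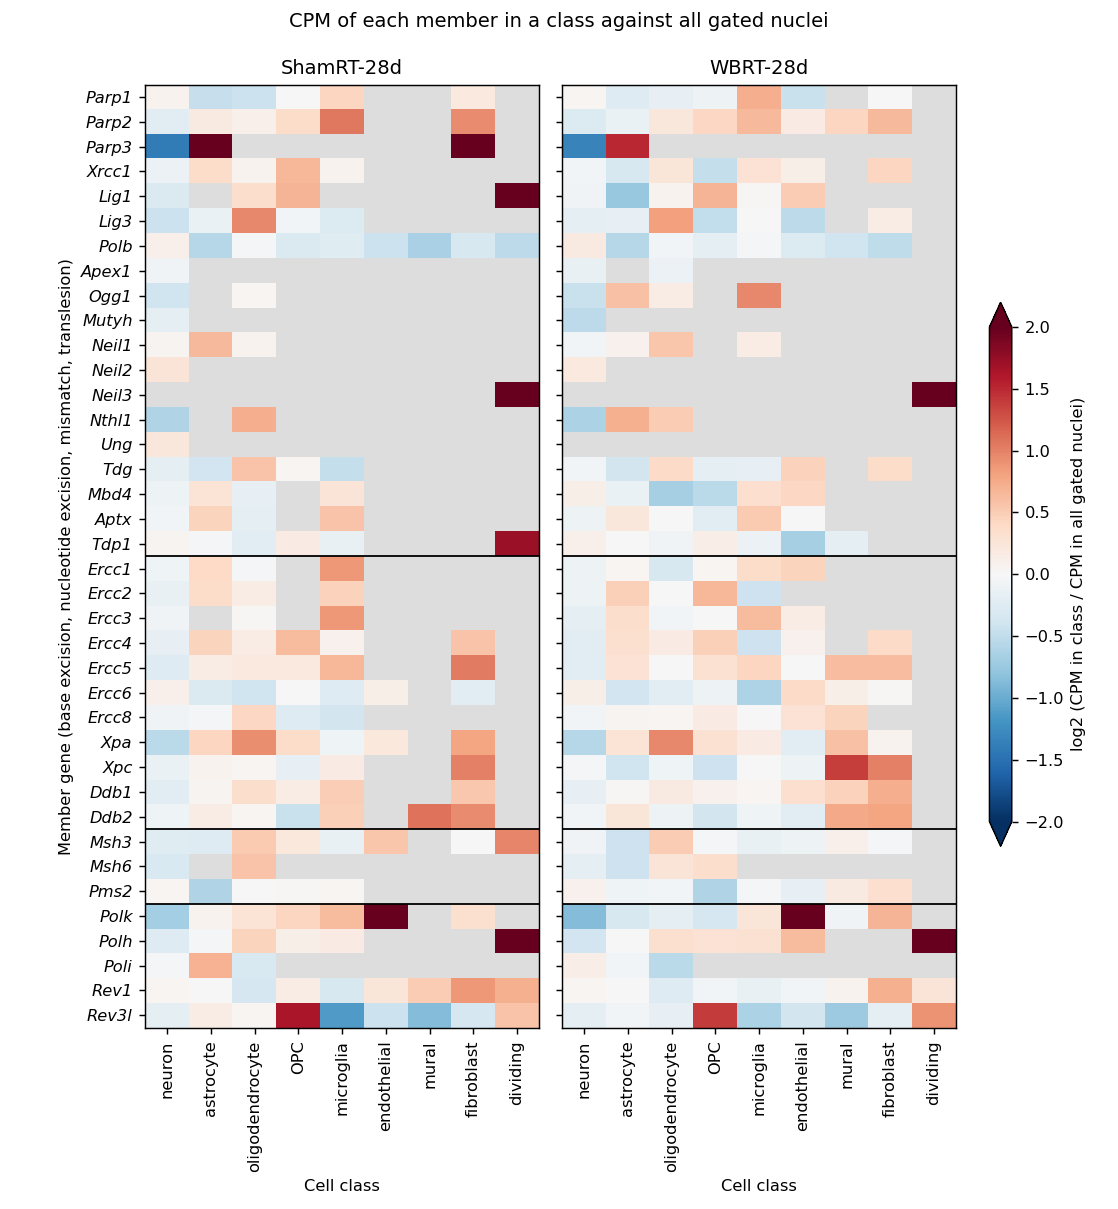
Each row is a member gene and each column a cell class. Colour gives the log2 ratio of the CPM in the class to that in all gated nuclei of the same library, ShamRT-28d on the left and WBRT-28d on the right, and grey marks fewer than 20 UMIs. Most cells are pale, and the strong red cells in both panels include Rev3l in OPCs (3.10-fold and 2.63-fold), Polk in endothelial nuclei (12.02-fold and 7.46-fold), Parp3 in astrocytes (4.37-fold and 2.84-fold) and Neil3 and Polh in dividing nuclei.

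Rev3l (chr10:39732118-39875211, plus strand, GRCm38) was highest in OPCs, at 675 CPM (633 to 718) in ShamRT-28d and 633 CPM (606 to 661) in WBRT-28d. Its level there was 3.10 and 2.63 times that of all gated nuclei. The next of the 8 classes was astrocytes, at 242 and 232 CPM, and microglia were lowest in ShamRT-28d, at 99.4 CPM. Some smaller classes came closer to OPCs. Choroid plexus held 388 and 382 CPM, ependymal nuclei 431 and 337 CPM and dividing nuclei 322 and 451 CPM. Immature neurons held 310 and 257 CPM and border macrophages 138 and 214 CPM. OPC nuclei held 3.86% of all UMIs of ShamRT-28d but 11.97% of those of Rev3l, and 6.94% against 18.2% in WBRT-28d. A Rev3l UMI was found in 76.8% of OPC nuclei (72.1% to 81.0%) in ShamRT-28d and in 78.5% (75.4% to 81.3%) in WBRT-28d, and with each nucleus thinned to 1000 UMIs in 45.5% and 44.4%. The thinned share of neurons was 15.5% and 16.7%, so OPCs stood above neurons at equal depth too. The same share was 32.8% and 32.3% in choroid plexus and 30.5% and 40.1% in dividing nuclei. RNA carried over from the rest of the brain would account for 9.69% and 14.6% of the OPC level, if it had the makeup of all gated nuclei. Among neurons Rev3l was higher in other GABA neurons, at 314 and 313 CPM, than in excitatory neurons, at 160.2 and 164.7 CPM. Other GABA neurons are those whose inhibitory markers scored above the markers of spiny neurons, which need not be absent.

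Polk, the translesion polymerase kappa (chr13:96480690-96542579, minus strand), was highest in endothelial nuclei by a wide margin. They held 439 CPM (381 to 504) in ShamRT-28d and 357 CPM (330.0 to 385) in WBRT-28d, 12.02 and 7.46 times all gated nuclei, and neurons no more than 22.7 and 26.2 CPM. At least 1 UMI of Polk was found in 44.0% of endothelial nuclei in ShamRT-28d (37.8% to 50.4%) and in 346 of 692 in WBRT-28d (46.2% to 53.8%), against 10.0% and 10.3% of the deeper neuron nuclei. Thinned to 1000 UMIs, 33.7% and 32.1% of endothelial and 2.27% and 2.68% of neuron nuclei had a UMI. The mural nuclei, from the same vessels, held 71.5 and 45.6 CPM on 18 and 33 UMIs, far below the endothelial level in both libraries. Choroid plexus, with 62 and 114 nuclei, was the other class past 2-fold on at least 20 UMIs per library, at 2.07 and 2.00 times all gated nuclei (1 of 7 members measured there, 19.7% of all genes), and ependymal nuclei stood at 2.25 and 2.19 times on 12 and 14 UMIs. The ratio of WBRT-28d to ShamRT-28d in endothelial nuclei was 0.813 (0.693 to 0.956), and neuron markers stood there at 45.1% and 64.8% of their level over all gated nuclei. Over all gated nuclei the ratio went the other way, 1.31 (1.22 to 1.40), and it was 1.12, with an interval without 1, when the endothelial nuclei were left out, which held 1.22% of the UMIs of ShamRT-28d and 3.94% of those of WBRT-28d. A ratio over all gated nuclei depends on both the share of each class and the level within it.

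**Figure D2:**
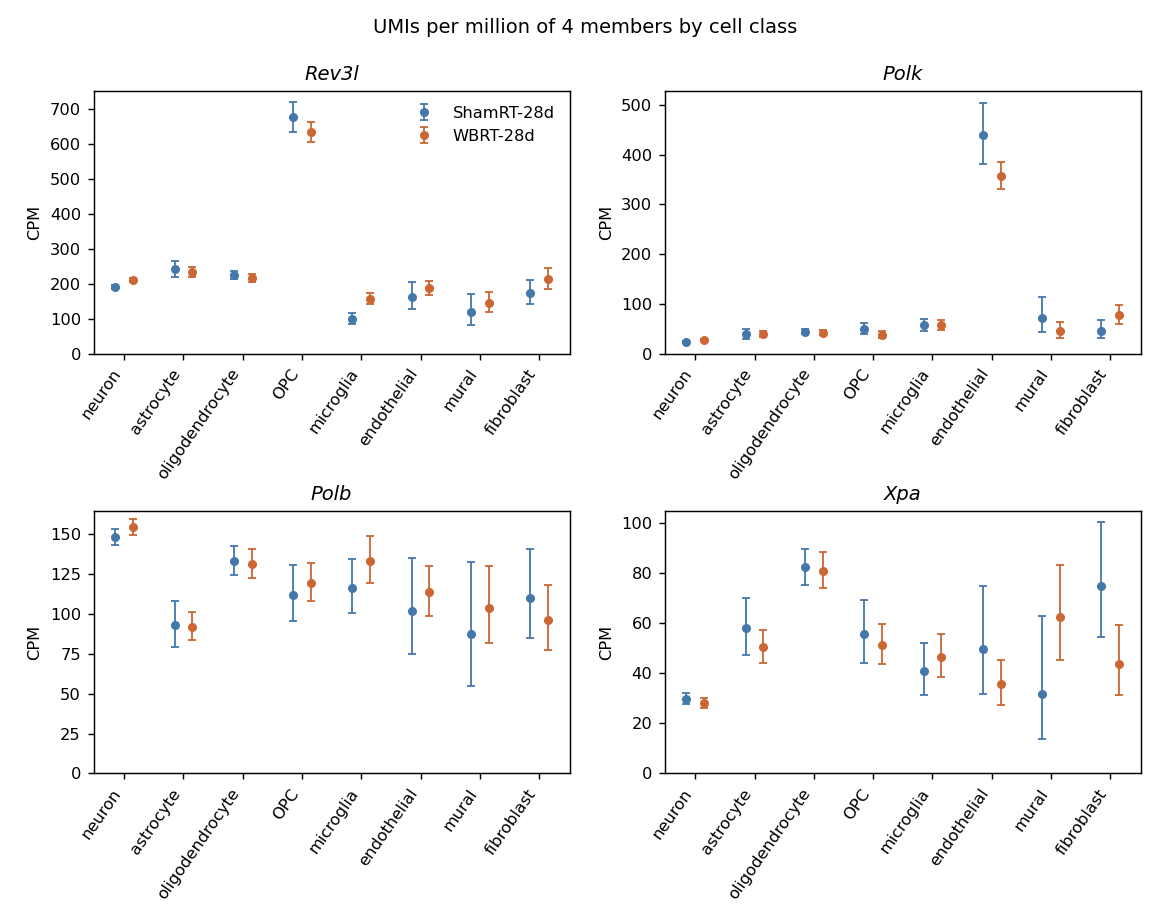
CPM of Rev3l, Polk, Polb and Xpa (vertical axes from 0) in the 8 cell classes, blue for ShamRT-28d and orange for WBRT-28d; bars are exact 95% Poisson intervals for counting error. Rev3l stands apart in OPCs at 675 and 633 CPM and Polk in endothelial nuclei at 439 and 357 CPM, Polb varies little between classes, and Xpa is high in oligodendrocytes at 82.2 and 80.7 CPM.

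Neil3 (chr8:53586867-53639065, minus strand) was found mostly in nuclei with markers of dividing cells, a class of only 46 nuclei in ShamRT-28d and 24 in WBRT-28d. These held 61 of 77 UMIs of Neil3 in ShamRT-28d, 79.2% (68.5% to 87.6%), and 25 of 32 in WBRT-28d, 78.1% (60.0% to 90.7%). Dividing nuclei held 0.666% and 0.353% of all UMIs. A Neil3 UMI was seen in 22 of 46 and 10 of 24 dividing nuclei, but in 4 of 4304 and 2 of 5218 neurons. Over all gated nuclei Neil3 was at 2.04 CPM in ShamRT-28d and 0.688 CPM in WBRT-28d, a ratio of 0.337 (0.216 to 0.516), the largest difference of any member and the only 1 of 38 past 1.5-fold there (15.4% of all genes). Within dividing nuclei the ratio was 0.627 (0.377 to 1.01), and without them 0.354 (0.123 to 0.910) on 16 and 7 UMIs. Neuron markers stood in dividing nuclei at 44.1% and 95.6% of their level over all gated nuclei. Polh, the translesion polymerase eta that copies past ultraviolet damage, was also high in dividing nuclei, at 111 and 134 CPM, or 6.30 and 9.98 times all gated nuclei. Lig1, the ligase of the replication fork, held 23 and 12 UMIs there, the latter fewer than the 20 set as the minimum, and stood at 91.5 and 73.1 CPM. In the dividing nuclei 2 of 4 members measured stood apart in this way (6.82% of all genes measured).

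Parp3, a PARP that acts at strand breaks, was a scarce transcript, at 3.12 and 3.14 CPM over all gated nuclei. In astrocytes it reached 13.7 CPM (8.84 to 20.2) and 8.91 CPM (6.40 to 12.1), against 1.18 and 1.25 CPM in neurons. On fewer UMIs it was higher still in fibroblasts, at 37.3 and 20.3 CPM on 22 and 19 UMIs, and in mural nuclei, at 19.9 and 19.4 CPM on 5 and 14. Xpc, which finds helix-distorting lesions for global genome repair, stood at 39.0 and 34.1 CPM in fibroblasts, 2.02 times all gated nuclei in each library. That level rested on 23 and 32 UMIs, and its counting error reached below 2 times. Fibroblasts held 3.15% (2.01% to 4.69%) and 4.07% (2.80% to 5.70%) of the UMIs of Xpc, against 1.56% and 2.02% of all UMIs. Mural nuclei, with 7 and 32 UMIs of Xpc, held 0.959% and 4.07% of its UMIs, against 0.666% and 1.55% of all UMIs. In WBRT-28d the level of Xpc was therefore higher in mural nuclei than in fibroblasts. Just under the 2-fold level, Xpa, which verifies the lesion and assembles the incision complex, was highest in oligodendrocytes at 82.2 CPM (75.3 to 89.5) and 80.7 CPM (73.8 to 88.1), 1.90 and 1.94 times all gated nuclei and above the neurons' 29.8 and 28.0 CPM. Lig3, the ligase that works with XRCC1, showed the same order, at 59.5 and 52.5 CPM in oligodendrocytes and 22.9 and 25.9 CPM in neurons. Xpa overlaps Ncbp1 on the opposite strand over 17057 bases. Polb was even, with no more than a 1.69-fold and a 1.68-fold span between its highest and lowest class.

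The promoters of 3 of the members that stood apart are shown, as the 250 bases before the RefSeq start in GRCm38.p6, on the strand of the gene. RefSeq windows were matched for 31 of the 38 members, and for Rev3l, Xpc, Polb, Ddb2, Neil2, Ercc3 and Poli none was matched. Capitals mark the letters searched on both strands: the GC box GGGCGG, the CCAAT box CCAAT and the NRF1 motif, GCGCA followed directly by its reverse complement.
Polk, chr13:96542580-96542829, minus strand: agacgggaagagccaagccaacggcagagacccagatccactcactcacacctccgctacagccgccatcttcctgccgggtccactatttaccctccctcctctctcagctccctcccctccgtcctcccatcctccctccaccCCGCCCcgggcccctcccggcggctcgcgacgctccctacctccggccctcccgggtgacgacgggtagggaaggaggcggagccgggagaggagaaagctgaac
Polh, chr17:46202642-46202891, minus strand: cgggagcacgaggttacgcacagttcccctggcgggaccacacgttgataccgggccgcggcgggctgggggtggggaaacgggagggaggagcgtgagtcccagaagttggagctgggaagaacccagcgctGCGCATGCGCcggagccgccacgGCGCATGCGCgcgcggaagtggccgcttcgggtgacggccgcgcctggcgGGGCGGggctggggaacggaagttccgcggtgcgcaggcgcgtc
Parp3, chr9:106476950-106477199, minus strand: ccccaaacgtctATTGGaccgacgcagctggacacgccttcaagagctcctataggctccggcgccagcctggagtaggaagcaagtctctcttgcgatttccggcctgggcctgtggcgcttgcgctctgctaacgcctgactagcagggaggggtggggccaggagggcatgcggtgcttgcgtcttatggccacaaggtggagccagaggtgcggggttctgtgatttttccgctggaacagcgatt
Polk and Polh each held 1 GC box, Polh 2 NRF1 motifs and Parp3 1 CCAAT box. Of the 31 members, 22 had the GC box in at least 1 of their windows, 16 the CCAAT box, and Polh and Tdp1 the NRF1 motif. Of all 32851 single RefSeq windows of this length, 32.7%, 33.8% and 0.782% held these motifs. A member may have more than 1 window, so the counts of members and the shares of windows are not like measures. These are matches of letters, not sites known to be bound.

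Summed by pathway, the members differed little between the irradiated and the unirradiated brain. Over all gated nuclei the base excision genes stood at 362 and 366 CPM, a ratio of 1.01 (0.989 to 1.03), the nucleotide excision genes at 286 and 288 CPM, a ratio of 1.01 (0.980 to 1.03), and the mismatch genes at 88.9 and 84.2 CPM, a ratio of 0.947 (0.904 to 0.992). The translesion genes stood at 389 and 415 CPM, a ratio of 1.07 (1.04 to 1.09), with 2 of 5 members higher. Of the 32 ratios of pathway and class, 25 had an interval that held 1. Nucleotide excision in microglia was lower in WBRT-28d, at 344 and 287 CPM and a ratio of 0.835 (0.745 to 0.935), with 9 of its 11 members lower (6178 of 12127 genes measured in microglia were lower), and the ratio was 0.745 with the carried-over neuron RNA subtracted. Mismatch repair was lower in endothelial nuclei, at 125 and 76.9 CPM and a ratio of 0.613 (0.449 to 0.848), and in OPCs, at 98.2 and 76.5 CPM and a ratio of 0.779 (0.632 to 0.964). In a single random draw of 1000 UMIs per nucleus the OPC ratio was 1.12. The thinned share of OPC nuclei with a Msh3 UMI, expected over all draws, was 5.46% in ShamRT-28d and 5.17% in WBRT-28d. It was 0.491% and 0.750% for Msh6, and 2.69% and 1.47% for Pms2. Translesion synthesis was lower in OPCs, at 872 and 796 CPM and a ratio of 0.912 (0.853 to 0.977), with all 5 members lower (5912 of 11761 genes measured in OPCs were lower), and higher in microglia, at 273 and 332 CPM and a ratio of 1.22 (1.08 to 1.37). Rev3l decides the microglial value, which was 1.02 without it and also 1.02 with the carried-over RNA subtracted. In neurons the ratio was 1.06 (1.03 to 1.09) for base excision and 1.04 (1.01 to 1.08) for translesion synthesis. The latter was 0.974 without Rev3l, and within excitatory, spiny and other GABA neurons it was 0.962, 0.991 and 1.02.

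**Figure D3:**
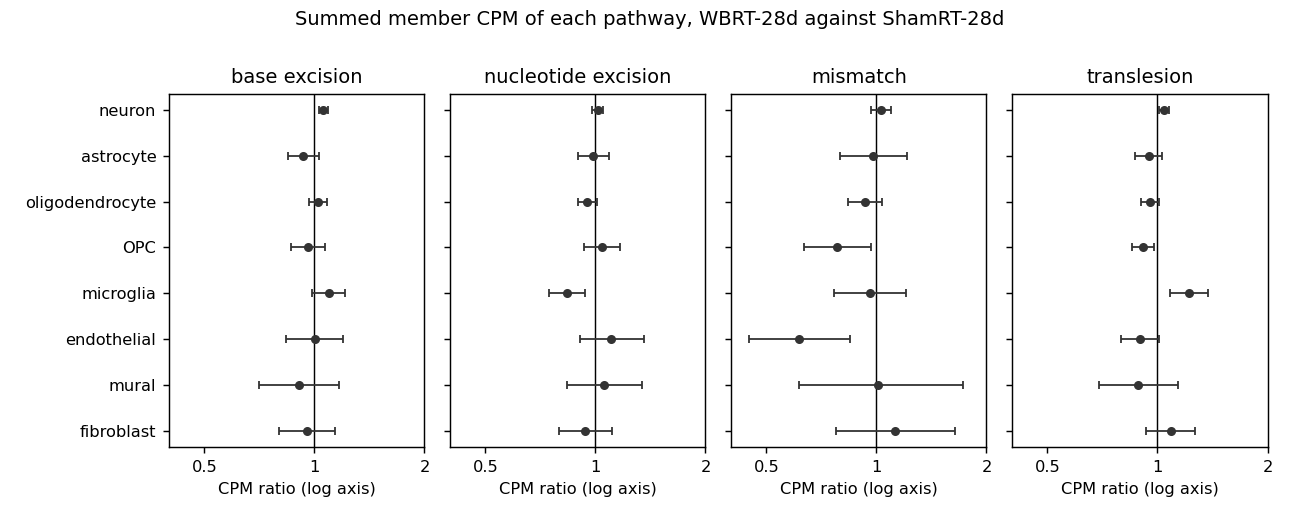
Ratio of the summed CPM of the members of each pathway, WBRT-28d over ShamRT-28d, on a log axis, by cell class; points are ratios and bars exact 95% intervals for counting error. Most bars cross 1, and those that do not include nucleotide excision in microglia (0.835) and mismatch repair in endothelial nuclei (0.613).

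Single members were compared in each class where both libraries together held at least 20 UMIs of the gene. Of 240 such pairs of member and class, 35 (14.6%) differed by at least 1.5-fold, 16 higher and 19 lower in WBRT-28d, while 22.4% of all 94341 pairs of gene and class did. An interval without 1 went with 11 of the 35, and with 12.4% of all pairs. The share fell with the number of UMIs, from 36.4% of 55 member pairs with 20 to 49 UMIs (42.9% of all such pairs) over 19.7% of 61 with 50 to 99 (27.9%) and 4.65% of 43 with 100 to 199 (18.4%) to none of 40 with 200 to 499 (2055 of all 17084) and 1 of 41 with 500 or more (8.06%). By class, the pairs past 1.5-fold were 1 of 37 members in neurons (16.9% of all genes), 4 of 35 in astrocytes (19.9%), 1 of 36 in oligodendrocytes (18.8%), 5 of 32 in OPCs (18.5%) and 5 of 33 in microglia (23.5%). They were 7 of 26 in endothelial nuclei (31.5%), 7 of 19 in mural nuclei (35.8%) and 5 of 22 in fibroblasts (23.5%). None of the 7 in mural nuclei had an interval without 1, and in endothelial nuclei Msh3 alone did. The pairs in the smaller sets were Parp3, Neil1, Xpc and Poli in astrocytes, Xrcc1, Neil1, Ercc1, Ercc2 and Pms2 in OPCs, Parp3, Neil1, Ddb2, Msh6 and Rev3l in microglia, and Parp3, Xrcc1, Xpa, Polk and Polh in fibroblasts. Those not described further had intervals that held 1, and they were named after their values were seen. In neurons, where the counts are deepest, 10 members were higher and 4 lower with an interval without 1 (21.5% and 21.3% of all genes). The median log2 ratio of the members was 0.02 in neurons and -0.10 in astrocytes, beside -0.01 and -0.02 over all genes. Of 26 members measured in at least 6 classes, none was higher in all of its classes and none lower, while 5.72% and 4.76% of all such genes were.

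**Figure D4:**
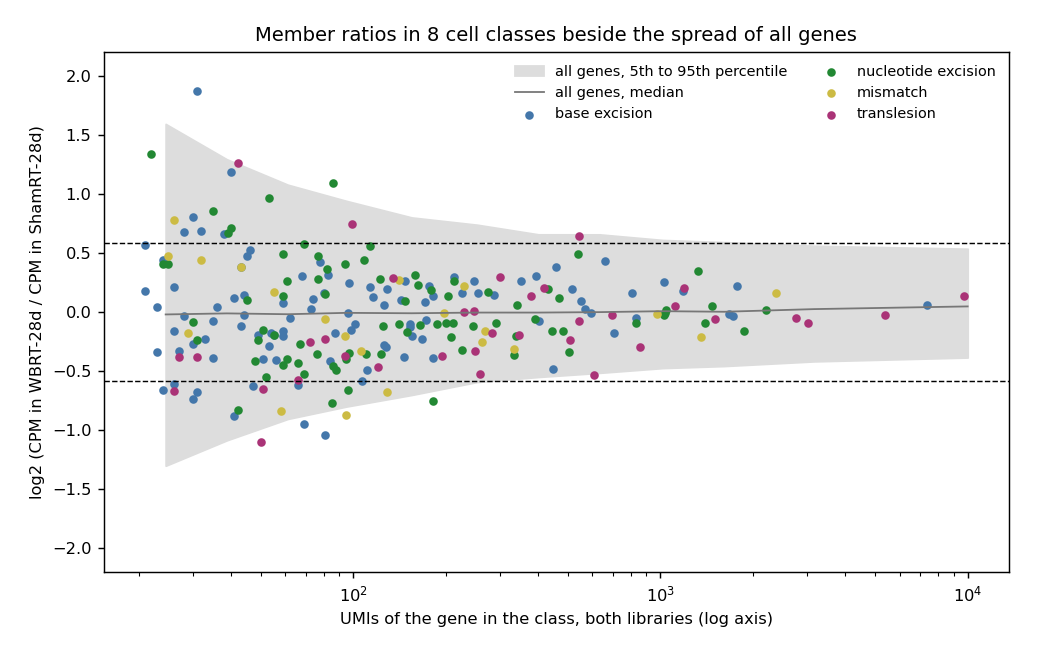
Each point is a member in 1 of the 8 cell classes, placed by its UMIs in both libraries (log axis) and its log2 CPM ratio, WBRT-28d over ShamRT-28d, and coloured by pathway. The grey band spans the 5th to 95th percentile of all genes, and the dashed lines mark 1.5-fold; the points draw together as UMIs increase and, of the 81 with 200 or more UMIs, 1 lies past a dashed line.

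Among the glycosylases, Neil1, which removes oxidised pyrimidines, was lower in WBRT-28d in neurons, at 10.8 CPM in ShamRT-28d and 7.72 CPM in WBRT-28d, a ratio of 0.717 (0.592 to 0.869). It was lower within each neuron group, with ratios of 0.712 in excitatory, 0.533 in spiny and 0.579 in other GABA neurons. Astrocytes held 16.4 and 8.48 CPM of Neil1, a ratio of 0.517 (0.313 to 0.863), whereas oligodendrocytes held 11.0 and 11.8 CPM. Neil2, a related glycosylase, was lower in excitatory neurons, at 5.85 and 2.93 CPM (ratio 0.501, 0.308 to 0.788), but stood at 2.21 and 4.67 CPM in other GABA neurons. Mbd4, which removes thymine mispaired at CpG sites, was higher in excitatory neurons, at 12.2 and 20.3 CPM (ratio 1.66, 1.34 to 2.06), and at 11.5 and 15.5 CPM in all neurons. In excitatory neurons 5 of 37 members passed 1.5-fold (17.7% of all genes); the others were Poli, and Parp3 and Ogg1 with intervals that held 1. In spiny neurons 2 of 31 did (24.6%), Neil1, which was lower, and Poli, which was higher with an interval that held 1, and in other GABA neurons 4 of 33 (16.1%), Neil1, Neil2, Polk and Polh. Ung in neurons, at a ratio of 0.647, and Apex1 in oligodendrocytes, at 1.58, were named after their values were seen, and their intervals held 1.

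Of the later steps of base excision repair, Xrcc1, the scaffold on which the gap is filled and sealed, was lower in OPCs, at 26.8 CPM in ShamRT-28d and 13.01 CPM in WBRT-28d on 39 and 42 UMIs, a ratio of 0.486 (0.307 to 0.772). In neurons it was at 15.7 and 17.5 CPM, and in microglia at 17.8 and 22.2 CPM, and these ratios had intervals that held 1. Polb stayed within a ratio of 0.870 to 1.19 in all 8 classes, and Parp1, the main sensor of nicked DNA, stood at 35.8 and 35.0 CPM in neurons and 45.9 and 56.5 CPM in microglia, where it was highest. Tdp1, which frees trapped topoisomerase from DNA ends, was higher in neurons, at 33.7 and 39.3 CPM (ratio 1.17, 1.06 to 1.28), and in oligodendrocytes, at 28.0 and 34.6 CPM (ratio 1.24, 1.01 to 1.52). Tdg, the thymine glycosylase that also removes oxidised methylcytosine, was higher in neurons, at 19.2 and 23.0 CPM (ratio 1.19, 1.05 to 1.35). Of the rest, Parp2, a sensor related to Parp1, stood at 20.3 and 20.5 CPM over all gated nuclei and Aptx, which clears abortive ligation products, at 12.1 and 12.6 CPM. The glycosylases Ogg1 for oxidised guanine, Mutyh for adenine paired with it and Nthl1 for oxidised pyrimidines were scarce, at 4.90 and 4.34, 2.28 and 2.13, and 3.02 and 3.05 CPM, and the intervals of these ratios held 1.

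In nucleotide excision repair, Ddb2, a subunit of the ultraviolet damage sensor, was lower in WBRT-28d in microglia and oligodendrocytes. In microglia it stood at 59.9 CPM (48.4 to 73.3) in ShamRT-28d and 35.5 CPM (28.5 to 43.7) in WBRT-28d, a ratio of 0.593 (0.438 to 0.801), where carried-over RNA would account for 29.5% and 66.3% of the level. Its level was 44.5 and 35.1 CPM in oligodendrocytes, a ratio of 0.790 (0.659 to 0.946). Its partner Ddb1, also the adaptor of many CUL4 ubiquitin ligases, was higher in neurons, at 24.0 and 30.5 CPM, a ratio of 1.27 (1.14 to 1.42). Xpc was lower in astrocytes, at 20.2 and 12.8 CPM (ratio 0.635, 0.414 to 0.985). Ercc2, the XPD helicase of TFIIH, was higher in OPCs, at 10.3 and 22.0 CPM on 15 and 71 UMIs (ratio 2.14, 1.21 to 4.01), and in neurons, at 9.20 and 12.9 CPM (ratio 1.41, 1.18 to 1.68). Ercc3, the other TFIIH helicase, was at 10.1 and 9.89 CPM over all gated nuclei. Xpa was lower in fibroblasts, at 74.7 and 43.7 CPM (ratio 0.585, 0.373 to 0.917), but 1.28 times as high in WBRT-28d in a single random draw of 1000 UMIs per nucleus. Ercc6, which recognises stalled RNA polymerase in transcription-coupled repair, was even, with 45.1 and 45.7 CPM in neurons, and Ercc8, its partner, at 22.3 CPM over all gated nuclei of each library. The nucleases Ercc1, Ercc4 and Ercc5 had ratios of 0.967, 1.03 and 1.02 over all gated nuclei.

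Of the mismatch genes, Msh3, which recognises insertion and deletion loops, held 61.2% and 64.1% of the pathway's UMIs. It was lower in endothelial nuclei, at 80.0 and 50.2 CPM on 37 and 92 UMIs (ratio 0.627, 0.424 to 0.945), and in neurons stood at 46.0 and 51.5 CPM (ratio 1.12, 1.03 to 1.21). Within excitatory, spiny and other GABA neurons its ratios were 1.12, 1.03 and 1.08, with intervals that held 1. Pms2, the endonuclease subunit of mismatch repair, was lower in OPCs, at 29.5 and 16.1 CPM (ratio 0.546, 0.357 to 0.837), and in other GABA neurons, at 34.9 and 24.0 CPM (ratio 0.687, 0.543 to 0.869), while excitatory neurons held 29.0 and 29.7 CPM. Pms2 is the only member that overlaps a protein-coding gene on its own strand (Gm42421 and Rsph10b), so that reads of these genes may be divided between them, and 15 members overlap genes on the opposite strand. The strand setting of the count is not given in the sources used here, so these members, Xpa, Ddb2, Msh3, Polk and Rev1 among them, may hold reads of the partner. Msh6, which recognises single mispaired bases, had 5.35 and 5.80 CPM over all gated nuclei, with 7.98 and 6.93 CPM in oligodendrocytes and 4.35 and 5.07 CPM in neurons.

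Among the translesion polymerases, Rev3l in microglia was the single pair past 1.5-fold on more than 500 UMIs, at 99.4 CPM (84.4 to 116) in ShamRT-28d and 155 CPM (140 to 172) in WBRT-28d, a ratio of 1.56 (1.29 to 1.89). The neuron markers in microglia would by themselves account for 89.7% and 96.6% of these levels if all carried-over RNA had the makeup of all gated nuclei, and after subtraction of that share the ratio was 0.808. In neurons Rev3l was at 190.5 and 209.7 CPM, a ratio of 1.10 (1.06 to 1.15), but in excitatory, spiny and other GABA neurons the ratios were 1.03, 0.993 and 0.997. Polh was lower in neurons, at 14.9 and 10.3 CPM (ratio 0.693, 0.588 to 0.816), and in oligodendrocytes, at 24.1 and 16.8 CPM (ratio 0.695, 0.537 to 0.897), and reached 0.617 (0.441 to 0.863) in other GABA neurons. In ShamRT-28d a single nucleus held up to 21 of the 205 Polh UMIs of excitatory neurons and up to 8 of the 75 of other GABA neurons. The intervals do not cover such clustering. Poli, polymerase iota, was lower in astrocytes, at 12.6 and 5.87 CPM on 23 and 27 UMIs (ratio 0.467, 0.258 to 0.853). Excitatory neurons held 8.22 and 5.07 CPM (ratio 0.617, 0.426 to 0.879). Spiny neurons went the other way, at 4.15 and 7.82 CPM on 8 and 35 UMIs (ratio 1.88, 0.858 to 4.70), and in other GABA neurons the ratio was 1.06 (0.668 to 1.72). The astrocyte ratio of Poli was 1.33 in a single random draw of 1000 UMIs per nucleus. Its thinned share of astrocyte nuclei, expected over all draws, stayed lower, at 0.870% in ShamRT-28d and 0.710% in WBRT-28d. Polk was higher in other GABA neurons, at 16.5 and 32.1 CPM (ratio 1.95, 1.47 to 2.61), and in fibroblasts, at 45.8 and 76.8 CPM (ratio 1.68, 1.06 to 2.71). Rev1 was within 0.723 to 1.10 in all 8 classes.

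Another 44 genes of the same pathways were listed by function. Over all gated nuclei 2 of 44 passed 1.5-fold (15.4% of all genes), Msh5 at 1.64 and 1.07 CPM and Exo1 at 0.980 and 0.602 CPM, both lower in WBRT-28d. In neurons 2 of 44 did (16.9%), Rpa2 at 1.39 and 2.33 CPM and Msh5 at 0.802 and 0.282 CPM. These were named after their values were seen, and the median log2 ratio of the 44 over all gated nuclei was -0.04. There 5 were higher and 14 lower with an interval without 1 (4426 and 4498 of all 18270 genes). In mural nuclei 5 were 1.5-fold higher and 3 lower of 24 measured (35.8% of all genes past 1.5-fold). Endothelial nuclei had 4 and 3 of 29 (31.5%), microglia 3 and 4 of 38 (23.5%) and fibroblasts 0 and 4 of 28 (23.5%). Astrocytes had 1 and 3 of 38 (19.9%), oligodendrocytes 0 and 1 of 41 (18.8%) and OPCs 0 and 1 of 34 (18.5%). The companions with the most UMIs in base excision were Apex2, a second AP endonuclease, at 88.8 and 90.8 CPM, and Parg, which removes poly(ADP-ribose), at 87.0 and 84.5 CPM. In nucleotide excision they were Mnat1 and Ccnh of the TFIIH kinase, at 102.9 and 97.7 CPM and at 69.6 and 63.5 CPM. In mismatch repair they were Rfc1, the large subunit of the clamp loader, at 50.4 and 52.4 CPM, and Mlh3 at 27.6 and 27.0 CPM, and in translesion synthesis Shprh and Ube2b, which modify the clamp PCNA, at 95.2 and 102 CPM and at 55.7 and 57.5 CPM.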

How the data were processed

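The 2 libraries were made with 10x Chromium 3′ chemistry (v2 per the labels) and hold UMIs, so that PCR copies count once. The authors deposited filtered matrices of raw counts per gene and nucleus from Cell Ranger 5.0.0 on a custom pre-mRNA mm10 reference; Seurat 3.0 and R 3.5.3 are also listed in the submitters' processing notes. The filter (500 genes or more, mitochondrial UMIs no more than 5%) passed 11037 barcodes (ShamRT-28d) and 15668 (WBRT-28d).

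Nuclei were gated by the summed level of marker genes per class. The markers were fixed first, and the gate thresholds were set after the marker scores were seen. Nuclei with markers of 2 classes, 599 and 1791, and nuclei without enough markers, 1543 and 2091, were left out, and no doublet caller was run. The members and lists were chosen with earlier results of these data known. UMIs were summed per class and library and divided by all UMIs of the class (CPM). Depth was 37764850 and 46513606 UMIs over all gated nuclei. Ratios carry exact conditional binomial 95% intervals, levels exact Poisson and shares Clopper-Pearson intervals, all for counting error only. With 1 pooled library per condition there was no test. A member counted as measured with at least 20 UMIs over both libraries in the class. Values are given in full for members past 1.5-fold with an interval without 1 in a class of at least 100 nuclei per library, for the 3 members with the most UMIs per pathway and for members at 2 times all gated nuclei in a class, and for the 2 companion genes with the most UMIs per pathway; others named were chosen after their values were seen. Carried-over RNA was estimated from 8 neuron markers as their level in a class over that in all gated nuclei. Alternatives were a stricter gate, nuclei with markers of 2 classes kept, no filter, scaling by the median ratio, thinning to 1000 UMIs, subtraction of carried-over RNA, classes from clusters, the median of the members and sums without the top member. The thinned ratios came from a single random draw per nucleus, while the thinned shares of nuclei are exact expectations over all draws. Calculations used scipy 1.17.1, scanpy 1.11.5, pandas 2.3.3 and numpy 2.4.6 under Python 3.11.15. The ratio intervals were run on simulated independent counts, which cannot show how they hold where UMIs cluster in single nuclei. Promoter sequences are RefSeq's (GRCm38.p6).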

Additional observations from a re-analysis of the deposited data

How the results depend on the processing

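No paired analysis was possible because each condition has 1 library. Of 288 recomputed pathway ratios (32 ratios, 9 alternatives), 261 stayed within the counting interval of the reported value, among them every ratio under the stricter gate, with nuclei of mixed markers kept, without the filter, with median scaling and with classes from clusters. In the other values the cause was not tested. Thinning to 1000 UMIs by a single random draw left out 316 nuclei of ShamRT-28d and none of WBRT-28d. The ratios in that draw were 1.11 for base excision in OPCs, and 0.886 and 1.21 for nucleotide excision in oligodendrocytes and fibroblasts. For mismatch repair they were 1.27, 1.12 and 1.78 in astrocytes, OPCs (turned in direction) and mural nuclei. By the thinned shares expected over all draws, Msh3 and Pms2 in OPCs stayed lower in WBRT-28d and Msh6 was higher. For translesion synthesis the ratios in that draw were 1.02 and 0.658 in oligodendrocytes and mural nuclei. With carried-over RNA subtracted they were 1.26 for base excision and 0.745 for nucleotide excision in microglia, 0.409 for mismatch repair in endothelial nuclei, and 0.860, 1.02, 1.09 and 0.535 for translesion synthesis in oligodendrocytes, microglia, endothelial and mural nuclei. The median of the members gave 1.17 for base excision in mural nuclei, 0.932 for nucleotide excision in OPCs, 1.12 for mismatch repair in neurons, and 0.982, 0.846 and 1.003 for translesion synthesis in neurons (turned), OPCs and microglia. Without the top member, mismatch repair was 0.904 in neurons and 0.818 in oligodendrocytes, and translesion synthesis 0.974 in neurons (turned), 0.825 in OPCs, 1.02 in microglia and 1.01 in endothelial nuclei. Pairs of member and class past 1.5-fold numbered 35 as reported, 67 with carried-over RNA subtracted, 15 with at least 50 UMIs and 62 with at least 1 UMI per library. Alternatives for single members were chosen after seeing the data. Xpa in fibroblasts turned to 1.28 and Poli in astrocytes to 1.33 in the thinning draw. The thinned share of astrocyte nuclei with Poli, expected over all draws, stayed lower in WBRT-28d. Rev3l in microglia turned to 0.808 with carried-over RNA subtracted (1.93 when thinned). Rev3l in OPCs stayed at 2.32 to 4.01 times and Polk in endothelial nuclei at 5.41 to 21.1 times all gated nuclei. Counts under 20 UMIs limit what can be said of rare classes and of Ung, Neil3 and Mutyh.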
